A study of Mus musculus with 23 samples.

Results

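Retinas given DNA nanoparticles that carry the human rhodopsin gene in its genomic form (human gRHO) were compared with retinas given the mouse gene in the same form (mouse gRho). The samples were chosen by treatment label: 3 human gRHO and 11 mouse gRho small RNA libraries of the 23 in the series, which came from 2 and 7 mice. Every one of these mice was of strain P23H+/- KI, heterozygous for a knock-in of the P23H rhodopsin mutation, and was taken at postnatal day 90, and the tissue was retina. The other 9 libraries came from uninjected P23H+/- KI mice (5 libraries, 3 mice), 1 saline-injected P23H+/- KI mouse (2 libraries) and wild-type (WT) C57B mice (2 libraries, counted as 2 mice), all at postnatal day 90 as well, and serve below only as levels beside the 2 constructs. Dose, route and time of injection are not stated in the labels. The comparison asks whether the species of the delivered rhodopsin gene goes with a difference in the miRNA content of a P23H retina.

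Rhodopsin is the light-sensing protein of rod photoreceptors, and the P23H change makes it misfold, so that rods are lost and the retina degenerates. MicroRNAs (miRNAs) are short RNAs that guide repression of messenger RNAs that pair with their seed, bases 2 to 8 from the 5′ end. Each hairpin precursor gives 2 arms, 5p and 3p, with different seeds. In the retina, the miR-183 cluster (miR-183, miR-96 and miR-182, made from a shared transcript) marks photoreceptors, miR-124 marks neurons at large, miR-9 and miR-204 are prominent in Mueller glia, and miR-204 and miR-211 are abundant in the pigment epithelium behind the retina.

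Depth ranged from 5968388 to 14120605 mature miRNA reads over the 14 libraries. The human gRHO mice were covered by 22329201 reads (mouse 1, both eyes) and 9910400 reads (mouse 2, left eye), and the mouse gRho mice by 7464293 to 23442759. Levels are given as CPM, the counts of a row scaled to the mature miRNA reads of the mouse. A row of the count table names a locus and no arm, so a value belongs to the locus. Copies of a miRNA in the genome with near-equal levels, such as mir-124-1, mir-124-2 and mir-124-3, can take up the same reads, so they count as a single measurement. Other copies differed in level, such as let-7a-1 (mean 28220 CPM) and let-7a-2 (1.28 CPM), and are given as separate rows. Photoreceptor and neuronal miRNAs, which check the tissue label, were present in all 14 libraries, but 1 library stood apart. In the right eye of mouse gRho mouse 1, mir-183 had 42.4 CPM, mir-182 6.92, mir-96 3.56 and mir-124-1 4.28. In the left eye of that mouse, mir-183 had 641 CPM and mir-124-1 had 137. Across 57 abundant rows the median absolute difference between the eyes was 1.10 on the log2 scale in that mouse and 0.12 to 0.30 in the other 3 mouse gRho mice with both eyes. Where this eye turns the sign of a difference or moves a fold change that the text dwells on, the value without it is given as well.

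The loci that carry the comparison are shown with their mature sequences from RefSeq (GRCm38.p6), 5′ to 3′ with the seed in capitals. The first 5 loci lay higher in both human gRHO mice than in all mouse gRho mice, and both arms are shown because the row does not name one.
mmu-miR-129-5p: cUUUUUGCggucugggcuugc
mmu-miR-129-2-3p: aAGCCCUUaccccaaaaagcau
mmu-miR-335-5p: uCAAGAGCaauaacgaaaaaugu
mmu-miR-335-3p: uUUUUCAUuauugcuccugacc
mmu-miR-181a-5p: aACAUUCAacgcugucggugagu
mmu-miR-181a-1-3p: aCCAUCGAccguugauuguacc
mmu-miR-434-5p: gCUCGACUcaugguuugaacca
mmu-miR-434-3p: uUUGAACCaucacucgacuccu
mmu-miR-154-5p: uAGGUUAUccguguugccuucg
mmu-miR-154-3p: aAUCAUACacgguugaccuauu

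The photoreceptor cluster and the most abundant families are shown by the 5p arm, because their seeds decide which rows can be grouped. The 3 members of the miR-183 cluster have 3 different seeds, although they come from 1 transcript. The let-7 members share a seed, as do miR-30a and miR-30e.
mmu-miR-183-5p: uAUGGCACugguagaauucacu
mmu-miR-182-5p: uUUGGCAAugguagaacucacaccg
mmu-miR-96-5p: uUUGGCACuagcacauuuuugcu
mmu-let-7a-5p: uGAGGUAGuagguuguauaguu
mmu-let-7c-5p: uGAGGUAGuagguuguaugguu
mmu-miR-30a-5p: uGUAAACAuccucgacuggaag
mmu-miR-30e-5p: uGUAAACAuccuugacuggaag
mmu-miR-9-5p: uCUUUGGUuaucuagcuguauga

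No miRNA row differed between the constructs at an adjusted p under 0.05. Of 326 rows tested with edgeR's quasi-likelihood test (n = 2 and 7 mice), 0 were called, which is 0.0% of the rows, and the smallest adjusted p was 0.898. At an unadjusted p under 0.05 there were 18 rows, 5.52% of those tested, with 9 higher (2.76%) and 9 lower (2.76%) in human gRHO. The higher rows include all copies of miR-124, which stand for 1 measurement. DESeq2 had 20 rows at an unadjusted p under 0.05 and 1 call, of a row described further on. In all, 152 rows lay higher and 174 lower in human gRHO, with a median log2 fold change of -0.02 and a median absolute value of 0.27, beside a median standard error (SE) of 0.38.

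How large a difference these retinas could still hide depended on the level of the miRNA. The 95% interval of the fold change lay inside a 2-fold difference in either direction for 133 of 326 rows (40.8%), and inside a 1.5-fold difference for 49. Rows set aside for jumps between levels, described further on, are not counted here, among them mir-1a-2 (mean 23180 CPM) and mir-206 (1593 CPM). Among the 57 abundant rows that were tested (mean level 50 CPM or more), 44 (77.2%) had an interval inside 2-fold and 24 inside 1.5-fold. Their log2 fold changes ran from -0.50 to 0.70, with a median of 0.02, a median absolute value of 0.15 and a median SE of 0.23. The spread between animals was of the same order. In these rows the median SD of the log2 level over the 7 mouse gRho mice was 0.30, and the median absolute log2 difference between the 2 human gRHO mice was 0.20. Among the 113 rows under 2 CPM, 2 had an interval inside 2-fold and the median SE was 0.61, and the intervals of the other low rows reached a 2-fold difference.

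**Figure D1:**
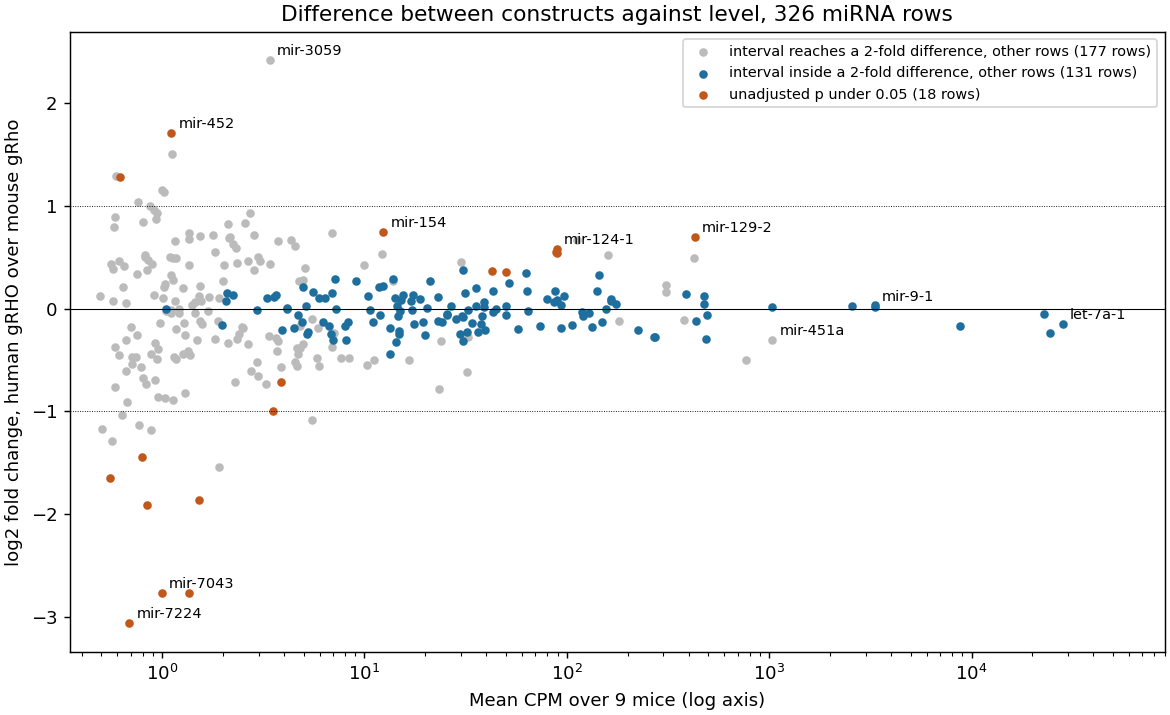
Log2 fold change of human gRHO over mouse gRho (y axis) against the mean level over the 9 mice in CPM (x axis, log scale), 1 point for each of 326 miRNA rows. Dotted lines mark a 2-fold difference, and the points fan out at low levels, and the lowest ones all lie near 1 CPM.

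The most abundant rows tested were loci of let-7, a family that promotes differentiation, and of miR-30, and their levels overlapped between the constructs. The row of let-7a-1 had 23800 and 28190 CPM in the human gRHO mice and ranged from 25300 through a median of 28980 to 32890 in the mouse gRho mice. This gave a log2 fold change of -0.15 (SE 0.14) with a 95% interval from -0.45 to 0.15. The row of let-7c-2 had 20110 and 22740 CPM against 19980, 26430 and 29410 (lowest, median and highest), a log2 fold change of -0.24 (SE 0.16). Both human gRHO mice thus lay inside the mouse gRho range for let-7c-2, and 1 of 2 did for let-7a-1.

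The mir-30a row had 23800 and 20550 CPM in human gRHO and 17390, 24120 and 27550 (lowest, median and highest) in mouse gRho. Its log2 fold change was -0.05 (SE 0.16), with an interval from -0.41 to 0.30. For mir-30e the levels were 8537 and 7459 CPM against 6835, 9334 and 10180, a log2 fold change of -0.17 (SE 0.17). Both miR-30 rows overlapped between the groups.

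Loci with the let-7 seed GAGGUAG on an arm gave 11 tested rows, of which 4 lay higher and 7 lower in human gRHO (median -0.05, range -0.50 to 0.71). The rows name no arm, so their reads cannot be assigned to that seed. The highest fold change came from let-7f-1, at a mean of 1.53 CPM. The lowest of the 11 rows was let-7d, with 437 and 727 CPM in the human gRHO mice against a mouse gRho median of 746 and a range of 486 to 1198. Its log2 fold change was -0.50 (SE 0.35) and its groups overlapped. The let-7c-1 row, at a mean of 13.3 CPM, was lower in both human gRHO mice than in all 7 mouse gRho mice. Its log2 fold change was -0.44 (SE 0.21, adjusted p = 0.898 with edgeR). The let-7 list, fixed by family and holding 12 tested rows, had a median log2 fold change of -0.10, beside -0.02 for all rows, and 0 of 12 passed the test. The miR-30 list had 4 rows higher and 2 lower (median 0.10), and 0 of 6 passed.

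The rows of the miR-183 cluster and of miR-124 had mean levels on the human gRHO side, without a call. For mir-183 the human gRHO mice had 512.5 and 588 CPM, and the mouse gRho mice ranged from 262 through a median of 343 to 564. Human gRHO mouse 2 lay above all mouse gRho mice, and human gRHO mouse 1 lay inside their range. The log2 fold change was 0.50 (SE 0.28, adjusted p = 0.898 with edgeR), with an interval from -0.11 to 1.10. For mir-182 the levels were 159 and 158 CPM against 44.5, 103 and 170.0 (lowest, median and highest), and the log2 fold change was 0.67 (SE 0.39). The third member, mir-96, had 64.4 and 75.5 CPM against 34.6, 54.6 and 98.5, a log2 fold change of 0.17 (SE 0.34) that was -0.05 with the sum of the mature rows as the scale and -0.08 in left eyes alone. In bulk retina, fewer photoreceptors and less miRNA per photoreceptor cannot be told apart.

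Rows of miR-124, the miRNA of most neurons, were close to each other in the 2 human gRHO mice. The mir-124-1 row had 121 and 119 CPM there, and 55.6, 72.2 and 113.5 CPM (lowest, median and highest) in the mouse gRho mice. The groups did not overlap for mir-124-1 or mir-124-2, and they overlapped for mir-124-3. Human gRHO exceeded mouse gRho by a log2 fold change of 0.58 (SE 0.24) for mir-124-1, 0.55 (SE 0.23) for mir-124-2 and 0.54 (SE 0.23) for mir-124-3. The unadjusted p ran from 0.0331 to 0.0361 over the 3 copies, and each had an adjusted p of 0.898 (edgeR). The 3 copies share a mature sequence and stand for 1 measurement.

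The standing-apart right eye bears on both groups of miRNA. Without it, the log2 fold change of mir-183 was 0.35, that of mir-182 0.48, that of mir-96 0.02 and that of mir-124-1 0.42. The groups then overlapped for mir-124-1, since the left eye of mouse gRho mouse 1 alone (137 CPM) lay above both human gRHO mice. In the left eyes alone, which were present in both human gRHO mice, mir-183 differed by 0.28 and mir-124-1 by 0.33. Control levels spanned the values of both constructs. For mir-183 they were 746 and 158 CPM in the WT mice, 478, 137.5 and 430.3 in the uninjected mice and 488 in the saline mouse, and for mir-124-1 they were 164 and 61.6, 117, 32.5 and 109, and 101.

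Of the 57 tested rows with at least 50 CPM, 6 had both human gRHO mice above all 7 mouse gRho mice and 0 had both below, which together is 10.5% of these rows. Over all tested rows the groups did not overlap in 16 rows that were higher (4.91%) and 8 that were lower (2.45%) in human gRHO, 24 in all (7.36%). The 6 abundant rows were mir-129-2, mir-335, mir-181a-1, mir-434, mir-124-1 and mir-124-2, and the miR-124 copies among them stand for 1 measurement. Without the right eye of mouse gRho mouse 1, 1 of the 57 rows did so, mir-129-2, and 0 were lower. Over all rows 14 were then higher and 8 lower. In 3 mouse gRho libraries, the left eyes of mice 2 and 6 and the right eye of mouse 3, ribosomal RNA took over 2% of aligned reads. Without them 7 abundant rows had both human gRHO mice above, with mir-384 and mir-182 added and mir-335 no longer among them. Mouse 6 had 1 library and so dropped out, and with fewer mouse gRho mice a lack of overlap is easier to reach.

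The row of mir-129-2, one of 2 loci that give the brain-enriched miR-129-5p, had the largest log2 fold change of the 57 abundant rows. The human gRHO mice had 581 and 644 CPM. The mouse gRho mice ranged from 247.5 CPM through a median of 361 to 504. Both human gRHO mice lay above all 7. The log2 fold change was 0.70 (SE 0.26), with an interval from 0.14 to 1.25, an unadjusted p of 0.0172 and an adjusted p of 0.898 (edgeR). This corresponds to a 1.62-fold higher level, with an interval from 1.11-fold to 2.38-fold.

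By eye, mir-129-2 stood at 532 and 630 CPM in the left and right eyes of human gRHO mouse 1 and at 644 in the left eye of mouse 2. Among the mouse gRho libraries the right eye of mouse 3 had 598 CPM, and the right eye of mouse 1 had 41.0. Single eyes of the 2 constructs thus overlapped. Without that right eye the log2 fold change was 0.58, in left eyes alone 0.51, and without the ribosomal RNA-rich libraries 0.82. Without a construct the row ranged as widely, with 518.5, 217 and 705 CPM in the uninjected mice, 272 in the saline mouse and 393 and 138 in the WT mice. The other locus, mir-129-1, had 43.7 and 31.8 CPM in human gRHO and 18.7, 23.7 and 44.6 (lowest, median and highest) in mouse gRho. The fold change of that row was 0.45 on the log2 scale (SE 0.30) and its groups overlapped. Both loci can yield the same 5p sequence shown above, so their rows can share reads.

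For mir-335, which lies in an intron of the imprinted gene Mest, the human gRHO mice had 196.5 and 223 CPM and the mouse gRho mice 87.1, 151 and 182 (lowest, median and highest). The log2 fold change was 0.52 (SE 0.26) with an interval from -0.05 to 1.09, and 0.42 without the right eye of mouse gRho mouse 1. The left eye of that mouse had 257 CPM, above all human gRHO libraries. The control mice had 133 to 225 CPM when uninjected, 203 with saline, and 241 and 519 as WT, so the human gRHO values were among those of the uninjected mice.

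The mir-181a-1 row belongs to a family linked to mitochondrial turnover in retinal neurons. It had 166 and 175 CPM in human gRHO and 97.2, 141 and 158 (lowest, median and highest) in mouse gRho, a log2 fold change of 0.33 (SE 0.20) with an interval from -0.10 to 0.76. Of the 5 tested rows of loci with its 5p seed ACAUUCA, 2 lay higher and 3 lower in human gRHO, with a median of -0.03. The second locus of the same mature 5p sequence, mir-181a-2, had a log2 fold change of -0.21. Rows of this seed group thus lay on both sides of 0.

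A pair of rows of the imprinted Dlk1-Dio3 cluster, a large group of miRNAs expressed in neurons from the maternal chromosome, were among those without overlap. The mir-434 row had 157 and 152 CPM in human gRHO and 119, 139.8 and 151 (lowest, median and highest) in mouse gRho. Its log2 fold change was 0.18 (SE 0.17), and it was -0.004 with the sum of the mature rows as the scale. The mir-154 row, at a lower level, had 18.8 and 17.3 CPM against 7.50, 9.98 and 15.6, a log2 fold change of 0.74 (SE 0.26, unadjusted p = 0.0128, adjusted p = 0.898 with edgeR). Across the cluster the differences went both ways: of 35 tested rows, 18 lay higher and 17 lower in human gRHO, 0 passed, and the median was 0.02 (-0.09 without the right eye of mouse gRho mouse 1). The summed level of these 35 rows was 960 and 1010 CPM in human gRHO and 812 to 1156 in mouse gRho.

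**Figure D2:**
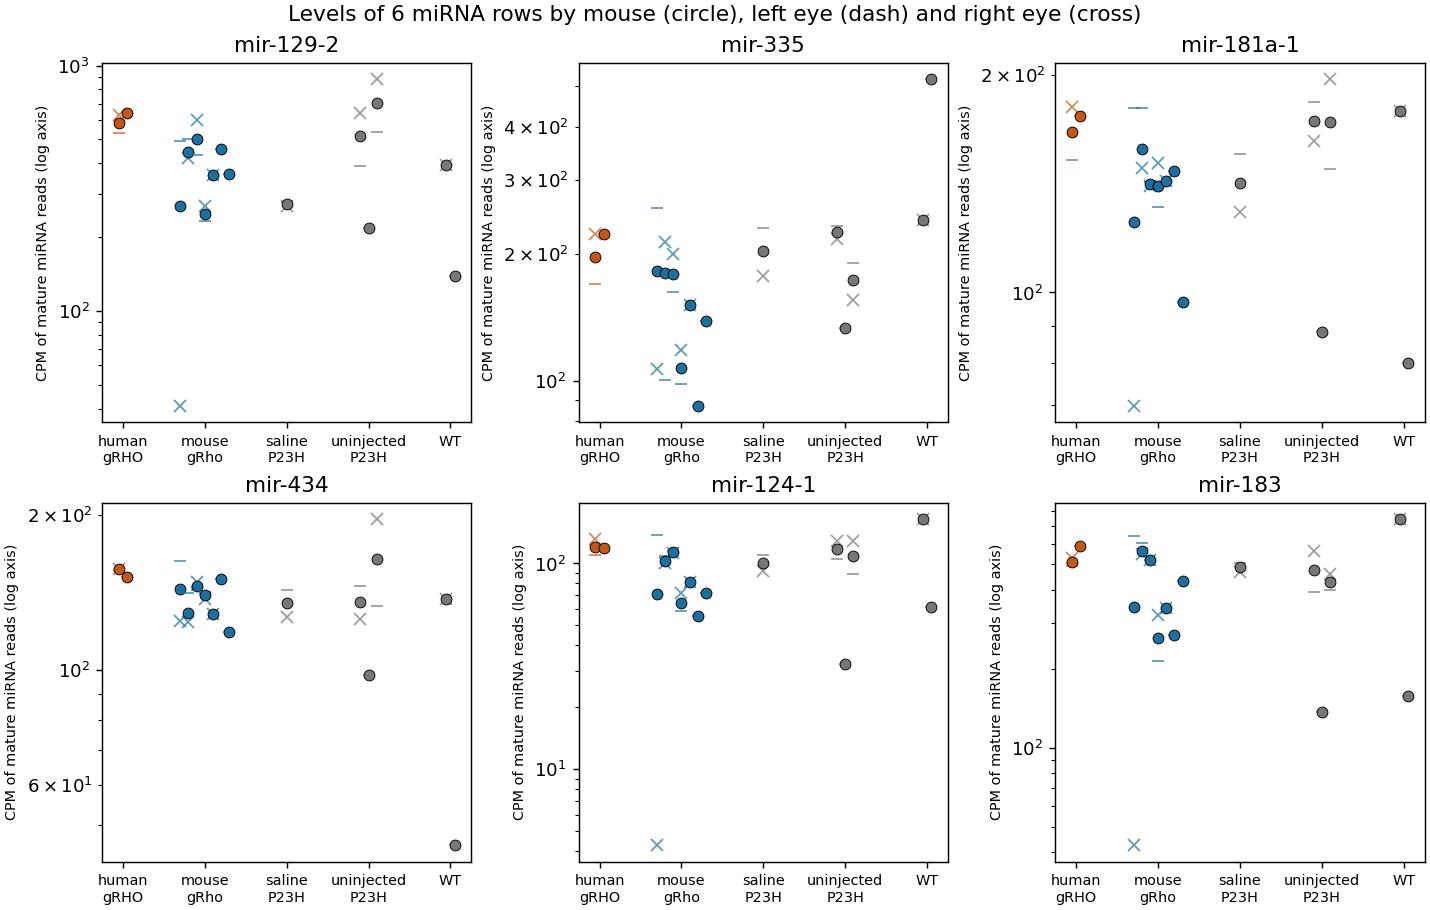
Levels in CPM (y axis, log scale) of 6 miRNA rows in the mice of each group (x axis). Circles are mice, dashes left eyes and crosses right eyes. Both human gRHO mice lie above every mouse gRho mouse for the first 5 rows, the right eye of mouse gRho mouse 1 lies far below for mir-129-2, mir-124-1 and mir-183, and the control mice vary widely in each row.

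Rows at a lower level without overlap included mir-29c, of the family that represses collagen genes, and mir-3535. They were named after their values were seen, as rows with an unadjusted p under 0.05. The mir-29c row had 61.5 and 59.0 CPM in human gRHO and 39.1, 46.4 and 56.3 (lowest, median and highest) in mouse gRho, a log2 fold change of 0.36 (SE 0.17). The mir-3535 row had 55.0 and 48.1 CPM against 34.0, 40.4 and 45.5, a log2 fold change of 0.37 (SE 0.16). By the same criteria, mir-3475 and mir-5114 lay lower in both human gRHO mice than in all mouse gRho mice. Their means over the 9 mice were 3.86 and 3.51 CPM. The log2 fold change was -0.717 (SE 0.309) for mir-3475 and -0.998 (SE 0.433) for mir-5114, and each had an adjusted p of 0.898 (edgeR). The 4 tested rows of the miR-29 list had 2 higher and 2 lower, with a median of 0.01.

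Of the 10 rows with the smallest p-values, 5 had a mean under 2 CPM and rested on few reads. The mir-7043 row counted 5 and 1 reads in the human gRHO mice and 45, 28, 26, 30, 3, 14 and 2 in mouse gRho mice 1 to 7. Both human gRHO mice lay below all mouse gRho mice in CPM, and the log2 fold change was -2.77 (SE 0.90, unadjusted p = 0.00869, adjusted p = 0.898 with edgeR). Its highest level was 2.28 CPM. The mir-7224 row counted 2 and 1 reads against 24, 4, 7, 25, 17, 8 and 3, a log2 fold change of -3.06 (SE 1.05).

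The rows of mir-7019 and mir-7047 lay lower in human gRHO by -1.86 (SE 0.71) and -2.76 (SE 1.15), and their groups overlapped. The mir-7047 row had 6 and 2 reads in human gRHO, and 2, 3 and 7 in mouse gRho mice 5, 1 and 6, against up to 72 in mouse gRho mouse 2. The mir-452 row lay higher, with 51 and 27 reads against 5, 18, 21, 44, 1, 3 and 4, a log2 fold change of 1.71 (SE 0.66). In human gRHO mouse 1 its level was 0.18 CPM in the left eye and 4.37 CPM in the right eye. Of the 18 rows with an unadjusted p under 0.05, those under 2 CPM were 2 higher and 7 lower in human gRHO. Those from 2 CPM up were 7 higher, counting each copy of miR-124, and 2 lower.

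**Figure D3:**
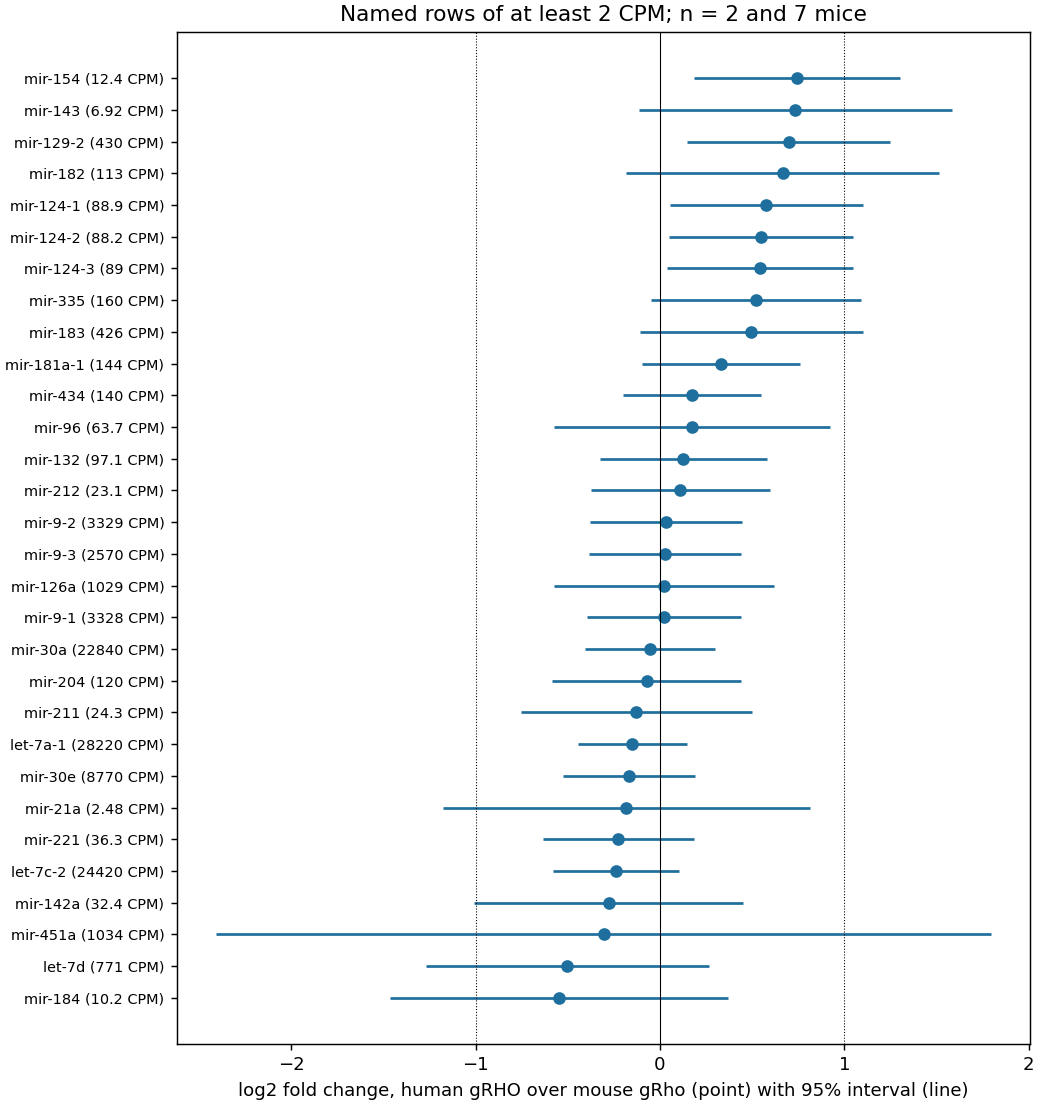
Log2 fold change of human gRHO over mouse gRho (points) with its 95% interval (lines) for 30 named rows of 2 CPM or more (mean level in brackets), from 2 human gRHO and 7 mouse gRho mice. Intervals of the let-7a-1, let-7c-2, miR-30 and miR-9 rows are short and hold 0. That of let-7d passes a 2-fold difference (dotted lines) on the lower side, and that of mir-451a does so in both directions.

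Glial and pigment epithelial miRNAs overlapped between the constructs. The mir-9-1 row, whose miRNA acts in neural progenitors and Mueller glia, had 3192 and 3539 CPM in human gRHO and 2537, 3319 and 4414 (lowest, median and highest) in mouse gRho. The log2 fold change was 0.02 (SE 0.19) with an interval from -0.40 to 0.44, so a difference as large as 1.5-fold lay outside it. The copies mir-9-2 and mir-9-3 each stood at 0.03, and without the right eye of mouse gRho mouse 1 the median of the 3 loci was -0.07. For mir-204 the levels were 98.6 and 133 CPM against 88.2, 115 and 162, a log2 fold change of -0.07 (SE 0.24). For mir-211, of the same seed, they were 21.3 and 24.02 CPM against 15.3, 26.3 and 34.9, a log2 fold change of -0.13 (SE 0.29). Of 11 tested rows on the Mueller glia list, 4 lay higher and 7 lower, with a median of -0.03, and 0 passed. The higher rows were the copies of miR-9, which stand for 1 measurement, and mir-99a, at a mean of 1.36 CPM.

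The activity-regulated pair mir-132 and mir-212, which neurons switch on with synaptic activity, differed by 0.13 (SE 0.21) and 0.11 (SE 0.22). The mir-132 row had 95.6 and 112.2 CPM in human gRHO and 71.4, 100.6 and 111.9 (lowest, median and highest) in mouse gRho. The mir-212 row had 23.4 and 25.6 CPM against 16.1, 20.8 and 28.1. The groups overlapped for both. The activity-regulated list, which also holds the miR-183 cluster, had 5 rows higher and 2 lower (median 0.13, and 0.02 without that right eye), and 0 of 7 passed.

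Vascular, blood and immune miRNAs differed in how closely they were measured. The mir-451a row, of red blood cells, had 1379 and 368 CPM in the human gRHO mice and 200 to 1978 in the mouse gRho mice, a log2 fold change of -0.31 (SE 0.91) with an interval from -2.41 to 1.80. The endothelial mir-126a had 1200 and 881 CPM against 593.5, 1035 and 1339 (lowest, median and highest), a log2 fold change of 0.02 (SE 0.28) with an interval inside 2-fold. The mural cell row mir-143 had 13.7 and 6.26 CPM against 3.77, 4.76 and 10.6, a log2 fold change of 0.73 (SE 0.39). That value rested on human gRHO mouse 1: it was 0.05 without that mouse, 1.18 without human gRHO mouse 2, 1.21 in left eyes alone and 0.93 without the right eye of mouse gRho mouse 1. The endothelial and mural cell list had a median of -0.06, and 0.10 without that eye. Each of these rows overlapped between the groups.

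The mir-142a row, of blood-derived cells and microglia, had 38.2 and 17.1 CPM in human gRHO and 26.6, 28.5 and 55.85 (lowest, median and highest) in mouse gRho. Its log2 fold change was -0.28 (SE 0.33), and it was 0.07 in left eyes alone. The mir-21a row, induced in stressed and reactive tissue, differed by -0.18 (SE 0.46) at about 2 CPM, and by 0.02 without the right eye of mouse gRho mouse 1. The mir-221 row differed by -0.23 (SE 0.19), with 34.2 and 29.9 CPM against 27.4, 37.6 and 42.6. On the microglia and leukocyte list, 1 of 5 tested rows lay higher and 4 lower, with a median of -0.18. The summed level of the 5 tested rows was 64.6 and 76.2 CPM in human gRHO and 62.4 to 98.5 in mouse gRho. That sum leaves out mir-146a and mir-155 (means 177 and 79.0 CPM), which were set aside for jumps between levels, described further on. On the list of miRNAs reported up in retinal degeneration, 2 rows lay higher and 3 lower. The higher rows were mir-133a-1 and mir-133a-2, copies that stand for 1 measurement. The median of the list was -0.18, and 0 of 5 passed. That median was 0.02 without the right eye of mouse gRho mouse 1 and 0.07 in left eyes alone, and that of the microglia and leukocyte list was -0.05 and -0.12.

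Markers of tissue around the retina varied between animals of 1 construct. The tested muscle rows summed to 472 to 898 CPM in human gRHO and 149 to 837 in mouse gRho, carried by mir-133a-1 and mir-133a-2. These copies stand for 1 measurement, so the sums can count the same miRNA more than once. Rows set aside for jumps between levels, described further on, are in none of the sums given here. Among them are the muscle rows mir-1a-2 (mean 23180 CPM over the 9 mice) and mir-206 (1593 CPM). The mir-133a-1 row had 451 and 244 CPM against 74.0, 385 and 416 (lowest, median and highest), a log2 fold change of 0.23 (SE 0.69). Red blood cell miRNAs summed to 379 to 1413 CPM in human gRHO and 207 to 2039 in mouse gRho. The tested surface epithelium, lens and cornea rows summed to 90.2 to 112 CPM and 80.3 to 202. The set-aside rows mir-429 and mir-200c, with means of 618 and 559 CPM, are not in these sums. The lens and cornea row mir-184 differed by -0.55 (SE 0.42), or -0.29 without the right eye of mouse gRho mouse 1. The liver list had 1 tested row, at about 1 CPM. The groups overlapped in each of these sums, and their part in the differences above was not tested.

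Across the 23 lists, 0 tested rows passed, so the lists are described by their medians. The miR-124 loci (median 0.55, 3 of 3 higher), the miR-183 cluster (0.50, 3 of 3 higher, with mir-96 at -0.05 on the sum-of-rows scale) and the other neuronal miRNAs (0.28, 6 of 8 higher, led by mir-129-2) had the highest medians of lists with at least 2 tested rows. The 8 tested rows of the other neuronal list summed to 707 and 778 CPM in human gRHO and 334 to 616 in mouse gRho. These sums did not overlap, and mir-129-2, itself a row without overlap, made up most of them. They leave out rows set aside for jumps between levels. The set-aside row mir-218-2 had a mean of 331.5 CPM, with its upper level in 3 of 3 human gRHO and 7 of 11 mouse gRho libraries. Without the right eye of mouse gRho mouse 1, the median of the miR-183 cluster was 0.35, that of the miR-124 loci 0.38 and that of the other neuronal miRNAs 0.31. The lowest medians were those of the muscle (-0.48), red blood cell (-0.46), epithelium (-0.32) and miR-26 (-0.30) lists, each of which held rows with few reads or overlapping levels. Without that eye they were -0.44, -0.37, -0.09 and -0.29 in the same order, and in left eyes alone -0.24, 0.02, -0.04 and -0.45. On the muscle list the lower rows were mir-208b and mir-499, at means of 0.769 and 0.795 CPM. The copies mir-133a-1 and mir-133a-2, at 308 and 309 CPM, lay higher, by 0.23 (SE 0.69) and 0.16 (SE 0.70). The muscle median thus does not give the direction of its abundant rows. The miR-17/92 clusters, which drive proliferation, had 7 rows higher and 3 lower (median 0.09), and the miR-99/100 and miR-125 families had 1 higher and 5 lower (median -0.15). Without that eye these medians were 0.19 and -0.08.

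**Figure D4:**
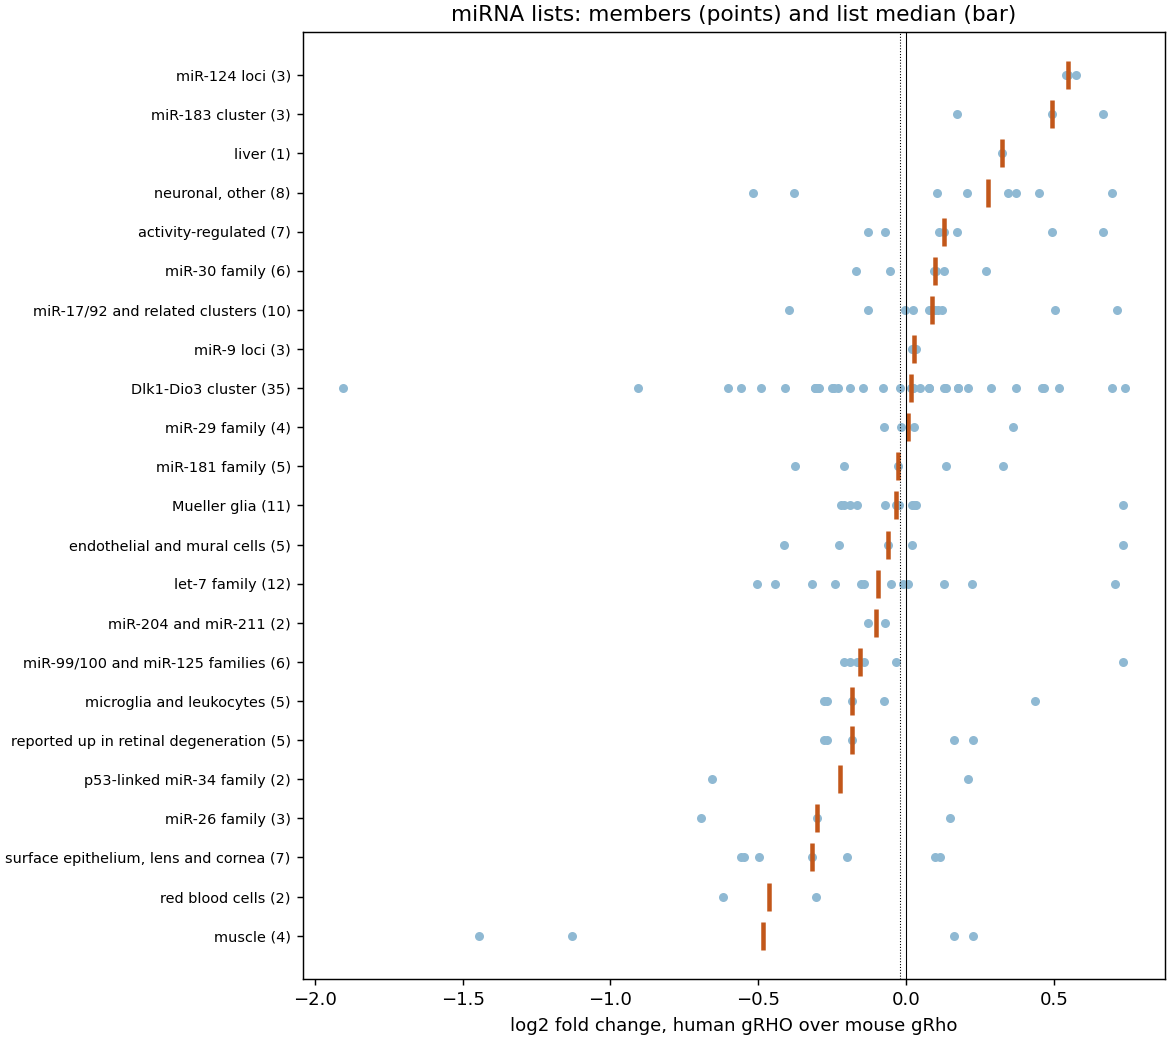
Log2 fold change of human gRHO over mouse gRho (x axis) for the tested rows of 23 miRNA lists (points, number of rows in brackets) and the median of each list (bar). The dotted line marks the median of all 326 rows, -0.02, and the miR-124 and miR-183 lists have the highest medians, 0.55 and 0.50.

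A further 55 rows passed the count filter but were set aside, because over the 23 libraries of the series they jumped between an upper and a lower level. In 4 of them, mir-574, mir-1a-1, mir-10a and mir-410, the 14 libraries compared here all lay at 1 level, and the jump was to other libraries of the series. The muscle row mir-1a-2 was at 9982 to 88630 CPM in 2 of 3 human gRHO and 5 of 11 mouse gRho libraries and at 0.17 to 0.71 CPM in the others. The immune row mir-146a was at its upper level in 2 of 3 and 4 of 11 libraries, mir-155 in 1 of 3 and 10 of 11, and the epithelial row mir-200c in 2 of 3 and 7 of 11. Other rows with such jumps did not meet the rule and stayed in the test. They were named after their values were seen. The mir-3059 row had 18.6 CPM in human gRHO mouse 2 and 10.4 CPM in mouse gRho mouse 1, and at most 0.41 CPM in the other 7 mice, and it was the call of DESeq2 (log2 fold change 4.45, adjusted p = 0.0289). The mir-1982 row had 0.30 CPM in human gRHO mouse 2, against 5.33 in human gRHO mouse 1 and 3.79 to 8.47 in the mouse gRho mice.

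The makeup of the libraries by class of alignment was compared with an exact permutation test over the 9 mice (two-sided, 36 assignments, smallest possible p 0.0278). Of 25 classes, 2 reached that smallest p, introns and repeats of unknown class, and the smallest adjusted p was 0.347. Mature miRNA took 82.8% and 84.0% of aligned reads in the human gRHO mice and 81.4% ± 3.4 (SD, n = 7) in mouse gRho (exact permutation p = 0.444). Reads in introns took 0.220% and 0.347% in human gRHO and 0.192% ± 0.025 (SD, n = 7) in mouse gRho, a log2 difference of 0.54 (exact permutation p = 0.0278, adjusted p = 0.347). It was 0.87 without human gRHO mouse 1 and 0.21 without human gRHO mouse 2. Ribosomal RNA took 0.606% and 0.875% in human gRHO and 0.365% to 4.85% in mouse gRho.

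The leading number in the sample titles was shared by both human gRHO mice and by none of the mouse gRho mice, which carried 3 other numbers. What that number marks is not stated, so the construct and whatever it marks cannot be told apart. Small RNA rows hold no measure of the delivered rhodopsin gene, so delivery was not checked here.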

How the data were processed

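Small RNA libraries were made from flash-frozen retinas with Trizol and a NEXTflex small RNA kit, per the labels' protocols. The authors deposited 2 tables of raw read counts, one by miRNA locus and row class, the other by alignment class for each library. DESeq2 is named, without a version, in the submitters' processing notes. The aligner, genome build and miRNA annotation were not given in the sources used here. Coordinates are therefore left out. The mature rows of the count table sum to 10.4% to 19.5% of the mature miRNA reads in the alignment table, and the latter was used as the scale.

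Titles were read as mouse and eye, which is an inference, and the eyes of 1 mouse were summed, since eyes of 1 animal are not replicates. Nothing in the labels says how the animals are related, so a p-value reflects only how these mouse sums vary. Of 903 mature rows, 381 had at least 10 counts in at least 3 of the 14 libraries. Rows with a highest count of at least 30 and a gap of at least 3.5 in sorted log2(CPM + 0.5) over all 23 libraries, or of at least 2 with 2 libraries on each side, were set aside (55), which left 326.

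These were tested with edgeR 4.0.16 (robust quasi-likelihood, R 4.3.3) on the 9 mice, with Benjamini-Hochberg adjustment over all 326 rows, a threshold of 0.05 and no further scaling factor. SE is the absolute log2 fold change over the square root of F. The fit was tested on simulated data. DESeq2 1.42.0, limma 3.58.1, other scales and filters, and leaving out libraries or mice were alternatives. Sequences came from RefSeq tables for 35 of 43 named rows.

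Named rows are the 10 with the smallest p, the up to 6 largest differences in each direction among rows of at least 50 CPM without overlap, the 10 most abundant, and 16 retinal, glial, vascular and immune rows. The members, lists and rules were chosen with earlier results of these data known. Lists are described by counts and medians, with no test.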

Additional observations from a re-analysis of the deposited data

Results flagged for a closer look

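Among the 7 mouse gRho mice, 5 of 47 values looked at had a mouse far from the others (Dixon's test, critical value 0.568). This count cannot be set beside a chance rate, because mir-3059 was named after its levels were seen and shares of 1 library depend on each other. The mir-142a row stood at 55.85 CPM in mouse gRho mouse 5, and the next value was 39.21 CPM. The mir-3059 row stood at 10.37 CPM in mouse gRho mouse 1, and the next value was 0.413 CPM. The other 3 belong to mouse gRho mouse 6, a single left eye, in which mature miRNA took 74.32% of aligned reads (next 80.81%), ribosomal RNA 4.848% (next 2.249%) and introns 0.1406% (next 0.1882%).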

How the results depend on the processing

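Of 25 alternative fits, 22 called 0 rows, and rows at an unadjusted p under 0.05 numbered 6 to 38. There was 1 call without human gRHO mouse 1 (mir-1982, log2 fold change -4.33, adjusted p = 0.0234), 1 without the 3 mice of one title number (mir-1943, 3.41, adjusted p = 0.0028) and 1 with DESeq2 (mir-3059, 4.45, adjusted p = 0.0289). Leaving out 1 mouse at a time gave 0 to 1 calls. With 1 human gRHO mouse left, that mouse is assumed to vary like the others. The cause of these calls was not tested, and each of the 3 rows jumps between a high and a low level. Of 43 named fold changes, 26 kept their sign in every fit. With the sum of mature rows as the scale the median of all rows moved to -0.19, mir-434 to -0.0040 and the miR-29 list to -0.17. The mir-142a row turned to 0.065 in left eyes and 0.18 without human gRHO mouse 2 (range over the mice left out -0.98 to 0.18), and mir-3059 to -2.09 without human gRHO mouse 2 (range -2.09 to 5.40).

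Counts of rows without overlap and of intervals inside 2-fold were alternatives chosen after seeing the data. Without human gRHO mouse 1 or mouse 2, a row lacks overlap wherever the human gRHO mouse left is highest or lowest. Counts of rows without overlap in those fits thus cannot be set beside the 24 of 326 rows with both mice. Intervals inside 2-fold numbered 75 and 95 in those fits, and 100 to 142 in the others. The median SE over all rows was 0.55 without human gRHO mouse 1 and 0.52 without human gRHO mouse 2. What sets the wider SE of rows under 2 CPM was not tested. No paired analysis was possible because no mouse received both constructs and the title numbers are not shared between the groups.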
